A study of Homo sapiens with 6 samples.

Results

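Hypoxia-responsive genes and the regulators of the hypoxia-inducible factors (HIFs) were examined in RNA-seq of MDA-MB-231 cells, a human cell line established from a triple negative breast cancer. The set comprised 37 genes taken by symbol from the 23228 gene symbols in the count tables: 3 HIF subunits, 5 HIF regulators and 29 genes known as HIF targets or as partners of the response to low oxygen or glucose. Cells with a control non-targeted shRNA gave 3 samples and cells with an shRNA against PELP1 (PELP1-KD) gave 3 samples, with both shRNAs stably expressed after puromycin selection. PELP1 is a coregulator protein that binds nuclear receptors and other transcription factors. All cells grew in the same serum-containing medium, and the oxygen tension was not given in the sources used here. A single PELP1-directed shRNA was used in a single line, so an effect of that shRNA apart from PELP1 cannot be told apart from the knockdown. No source stated that the samples of a group were separate cultures, and p-values therefore measure the spread between these samples, which may be technical.

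HIF is a dimer of an oxygen-sensitive alpha subunit, HIF1A or EPAS1 (HIF-2 alpha), and the stable partner ARNT. In the presence of oxygen the EGLN prolyl hydroxylases mark the alpha subunit, VHL recruits its degradation, and HIF1AN (FIH) hydroxylates an asparagine that is needed for coactivator binding. When oxygen falls, the stabilised dimer binds short DNA words with the core ACGTG or GCGTG and activates genes for angiogenesis, glycolysis, pH control, mitophagy and collagen modification. Much of this control acts on the HIF protein, which was not measured in these libraries.

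Short DNA stretches upstream of 5 members are shown because they carry the HIF core words in genes that fell and in a gene that rose upon PELP1-KD. The sequences are from RefSeq on GRCh38.p14, read 5′ to 3′ on the strand of the gene, and the capitals mark ACGTG or GCGTG on either strand (CACGT or CACGC where the word is on the other strand). The BNIP3 stretch lies at chr10:131982014-131982073 on the minus strand, the LOX stretch at chr5:122078290-122078449 on the minus strand, the P4HA1 stretch at chr10:73096917-73096986 on the minus strand and the EGLN1 stretch at chr1:231422288-231422347 on the minus strand. The BHLHE40 stretch lies at chr3:4979187-4979296 on the plus strand.
BNIP3: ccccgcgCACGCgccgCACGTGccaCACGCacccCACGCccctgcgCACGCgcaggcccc
LOX: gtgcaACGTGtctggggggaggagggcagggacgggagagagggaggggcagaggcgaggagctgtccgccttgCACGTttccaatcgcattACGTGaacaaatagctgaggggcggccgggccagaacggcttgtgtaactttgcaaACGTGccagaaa
P4HA1: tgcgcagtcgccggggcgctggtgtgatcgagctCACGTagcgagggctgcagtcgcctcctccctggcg
EGLN1: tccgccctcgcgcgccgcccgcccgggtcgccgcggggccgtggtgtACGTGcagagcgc
BHLHE40: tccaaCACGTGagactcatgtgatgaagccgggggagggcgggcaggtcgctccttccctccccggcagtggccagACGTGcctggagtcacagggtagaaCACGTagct

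The BNIP3 stretch held 6 core words within 60 bases, of which a pair are the 2 readings of the palindrome CACGTG. The LOX stretch held 4 words of the ACGTG type, and the P4HA1 and EGLN1 stretches held 1 each. BHLHE40, which rose upon PELP1-KD, also held 4, again with a CACGTG read on both strands. CACGTG is also the E-box word, which is not particular to HIF. It was in 6.34% of the 250-base stretches upstream of the RefSeq starts searched. A match of letters is a description and shows no binding of HIF in these cells.

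Between 17304864 and 23132102 reads per sample were counted on genes. The first principal component, with 71.5% of the variance, separated the control from the PELP1-KD samples. PELP1 itself had counts of 968, 1274 and 1069 in the control samples and 557, 637 and 712 in the PELP1-KD samples, a log2FC (log2 of PELP1-KD over control) of -0.97 ± 0.055 (SE) with an adjusted p-value of 1.48e-11 in edgeR's quasi-likelihood test. The 2 groups did not overlap, and the two-sided exact permutation test gave p = 0.1, the smallest that 3 against 3 samples allow. Genes used as markers of mesenchymal breast lines were VIM, CD44, AXL, EGFR, CAV1, MSN and KRT18, the last a keratin of epithelial cells. The summed CPM (read counts corrected for sequencing depth with TMM factors) of these 7 genes was 6353 to 6430 in control samples. It was 5356 to 5426 in PELP1-KD samples, with 6 of the 7 genes lower, KRT18 among them. The summed CPM of 8 luminal markers was 218 to 235 in control and 177 to 197 in PELP1-KD samples. ESR1, PGR and CDH1 had between 0 and 4 counts in every sample. KRT19 and FOXA1, named after their values were seen, were lower. KRT19 went from 97.7 to 50.7 CPM. FOXA1 had few counts, at 11, 26 and 20 in control and 7, 0 and 5 in PELP1-KD samples. The other tested luminal markers, GATA3, ERBB2 and EPCAM, had log2FC of 0.21, 0.065 and 0.029 and did not pass the test, and the median of the 5 tested was 0.029. The 5 leukocyte markers summed to 0.044 to 0.113 CPM in control and 0.0937 to 0.297 CPM in PELP1-KD samples, with PTPRC at 0 throughout. The 3 endothelial markers summed to 0.296 to 0.676 CPM and 0.923 to 1.17 CPM, respectively, with VWF, also named after its values were seen, higher (1, 6 and 0 counts in control and 12, 20 and 16 in PELP1-KD samples). PECAM1 and CDH5 had means of 0.221 and 0.142 CPM in control and 0.199 and 0.109 CPM in PELP1-KD samples, with overlapping groups. The part of these shifts in the results below was not tested.

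Of the 37 members, 34 had enough counts to be tested among 12796 genes, and 27 of them passed an adjusted p-value of 0.05 (edgeR, Benjamini-Hochberg over all tested genes). A total of 18 members (52.9% of 34) were downregulated, where 24.2% of all tested genes were lower. Another 9 members (26.5%) were upregulated, where 22.7% of all tested genes were higher. The median log2FC over the 34 members was -0.16, and over all tested genes it was 0.0014. Samples of the 2 groups did not overlap in CPM for 28 members (82.4%), with PELP1-KD below control in 19 and above in 9, and the background for such separation was 55.0% of all tested genes.

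Most of these changes were small. In all, 3 members (STC1, BNIP3 and BNIP3L) fell by over 1.5-fold, where 3.71% of all tested genes did. A further 2 rose by over 1.5-fold (STC2 and BHLHE40), where the background was 5.16%. BNIP3L did not reach 1.5-fold with library totals (log2FC -0.55), without control replicate 1 (-0.56) or without PELP1-KD replicate 2 (-0.58), and LOX passed it without PELP1-KD replicate 1 (-0.60). The number that rose by over 1.5-fold was 1 without control replicate 2, since BHLHE40 then had a log2FC of 0.55. It was 3 in the settings where CA12 passed as well. These were library totals (log2FC 0.61), without control replicate 3 (0.61), without PELP1-KD replicate 2 (0.59) and without PELP1-KD replicate 3 (0.59). Among the 29 members with a mean of at least 10 CPM, 18 (62.1%) were lower and 8 (27.6%) higher, where 28.8% and 22.9% of the 9419 tested genes at that level were. Scaling by library totals in place of TMM shifted the median log2FC of all tested genes by 0.049 and gave 2418 lower and 3817 higher genes, against 3103 lower and 2904 higher with TMM, while 16 members were lower and 9 higher.

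**Figure D1:**
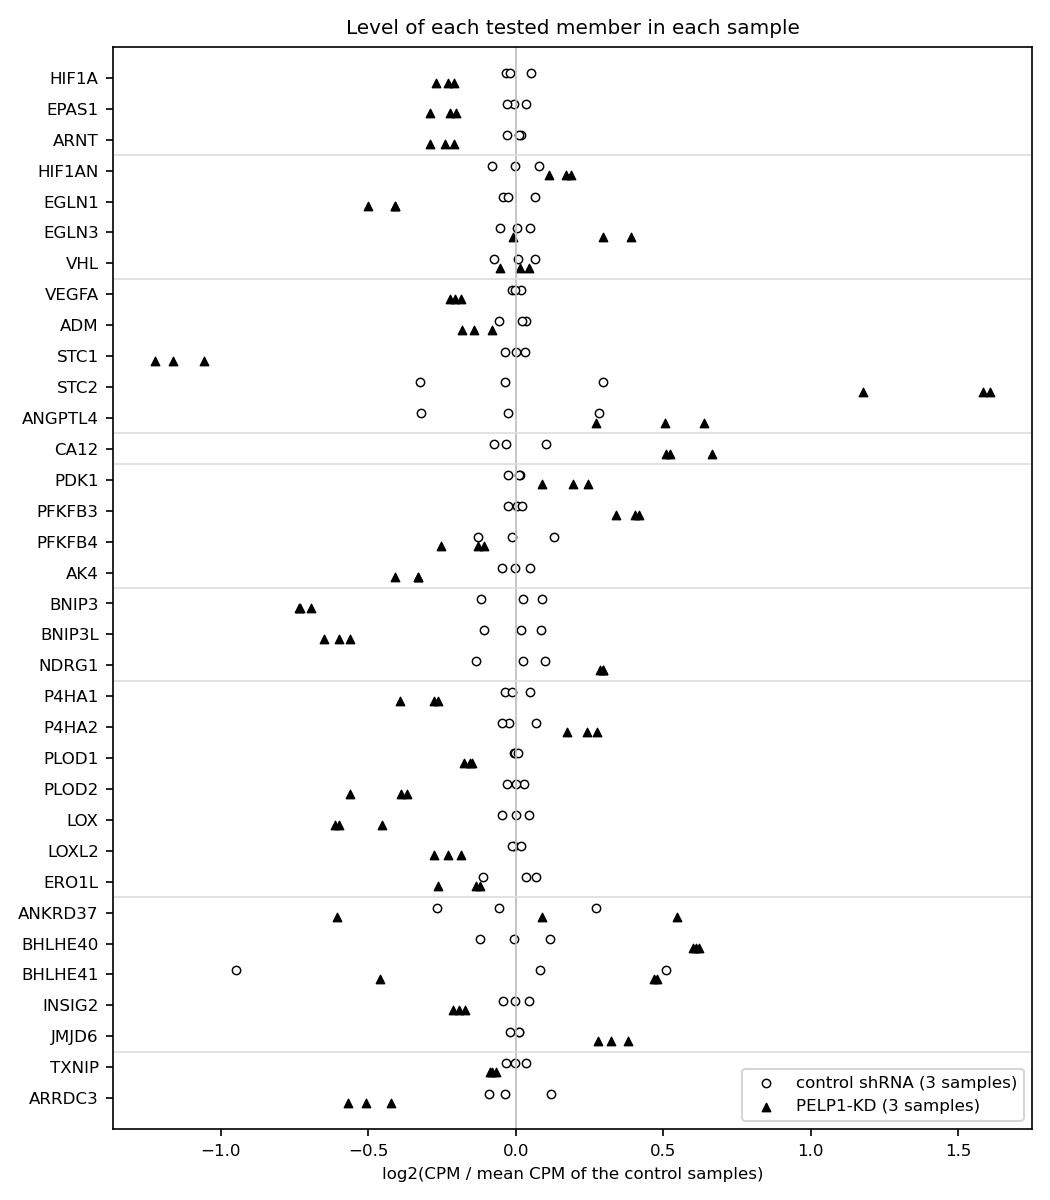
Level of the 34 tested members in each of the 6 samples, as the log2 of CPM over the mean CPM of the 3 control samples, ordered by role with grey lines between the roles. Open circles are control shRNA samples and triangles are PELP1-KD samples, and the groups separate without overlap in 28 genes, with the triangles to the left in 19 and to the right in 9.

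The 3 HIF subunit genes among the members were each downregulated upon PELP1-KD, by a similar amount, where 24.2% of all tested genes were lower. Of tested genes with a mean of at least 10 CPM, 28.8% were lower, and the groups did not overlap in 55.0% of all tested genes. ARNT2, a further subunit gene that is not a member, was higher, with a log2FC of 0.27. HIF1A was at 374, 353 and 356 CPM in the control samples and at 312, 299 and 307 CPM in the PELP1-KD samples. Every PELP1-KD sample lay below every control sample, and the log2FC was -0.24 ± 0.032 (SE, adjusted p-value 4.82e-06 by edgeR), a fall of 15.1%. EPAS1, the alpha subunit of HIF-2, was at 89.5, 87.9 and 92.1 CPM in control and 78.1, 73.4 and 76.9 CPM in PELP1-KD samples, again without overlap, with a log2FC of -0.24 ± 0.044 (edgeR adjusted p-value 0.000174). ARNT, the common partner, was at 52.0, 51.8 and 50.4 CPM in control and 42.0, 44.5 and 43.5 CPM in PELP1-KD samples. Its groups were also apart, with a log2FC of -0.25 ± 0.051 (edgeR adjusted p-value 0.000537).

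Per exon length, HIF1A was the highest of the 3 subunits. Its control level was 70.1 ± 2.24 RPKM (CPM per kilobase of exon, SD, n = 3), that of EPAS1 was 12.3 ± 0.287 RPKM and that of ARNT was 7.89 ± 0.135 RPKM, levels that lie apart by far more than their SD. The ratio of HIF1A to EPAS1 RPKM within a sample was 5.70 ± 0.223 in control and 5.70 ± 0.0625 in PELP1-KD samples. The ranges of this ratio overlapped, the difference of its log2 means was 0.0019, and the two-sided exact permutation test gave p = 1 (adjusted over 6 ratios, 1).

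The regulators of HIF moved in different directions. EGLN1 (PHD2), the prolyl hydroxylase that mainly sets HIF1A stability and is itself a HIF target, was at 95.7, 88.9 and 89.9 CPM in control and 68.9, 64.6 and 68.9 CPM in PELP1-KD samples. The groups did not overlap, and EGLN1 fell by 26.1%, with a log2FC of -0.44 ± 0.047 (edgeR adjusted p-value 2.07e-07). HIF1AN, the asparaginyl hydroxylase, was at 97.8, 92.6 and 87.7 CPM in control and 104, 105 and 100.3 CPM in PELP1-KD samples. All PELP1-KD samples were higher, with a log2FC of 0.16 ± 0.045 (edgeR adjusted p-value 0.00753), and the adjusted p-value was 0.0591 without control replicate 3.

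VHL, the substrate receptor of the ubiquitin ligase, was at 96.4, 91.1 and 100.4 CPM in control and 97.0, 92.5 and 99.0 CPM in PELP1-KD samples. The 2 groups overlapped fully, with a log2FC of 0.0051 ± 0.046 (edgeR adjusted p-value 0.936). EGLN3 (PHD3), a prolyl hydroxylase known as strongly inducible by HIF, was low, at 3.25, 3.04 and 3.15 CPM in control and 3.13, 4.12 and 3.87 CPM in PELP1-KD samples. Its groups overlapped in 1 PELP1-KD sample, with a log2FC of 0.25 ± 0.15 (edgeR adjusted p-value 0.2).

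EGLN2 (PHD1) had counts of 0, 0 and 0 in control and 1, 1 and 1 in PELP1-KD samples and could not be tested. A floor of 3 counts corresponds to 0.130 to 0.173 CPM in these libraries. The EGLN2 counts lay below it, so no difference could be read from them. In the GENCODE annotation 30.6% of its exon bases are shared on the same strand with the readthrough gene RAB4B-EGLN2, which had 0 counts in all 6 samples, as did RAB4B. Reads in shared exons cannot be given to a single gene by such counting. The floor may therefore not bound the level of EGLN2, which is uncertain.

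Among the secreted factors, the paralogs STC1 and STC2 moved in opposite directions. Both are stanniocalcins, glycoprotein hormones that act on calcium and phosphate balance and are induced by stress. STC1 was at 49.3, 50.6 and 51.7 CPM in control and 21.6, 24.3 and 22.6 CPM in PELP1-KD samples. It fell by 54.8%, the largest fall of the 34 tested members, with groups far apart and a log2FC of -1.15 ± 0.060 (edgeR adjusted p-value 3.31e-12). STC2 was at 1.42, 0.924 and 1.13 CPM in control, from 24, 21 and 20 counts, and at 2.62, 3.47 and 3.53 CPM in PELP1-KD samples, from 51, 74 and 83 counts. It had the largest rise among the members, 2.83-fold, again without overlap of the groups, with a log2FC of 1.5 ± 0.21 (edgeR adjusted p-value 7.43e-06).

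The ratio of STC1 to STC2 RPKM within a sample was 51.3, 80.9 and 67.8 in control and 12.2, 10.3 and 9.45 in PELP1-KD samples. STC1 stayed the more abundant of the pair per exon length in every sample, at 12.2 ± 0.288 RPKM against 0.189 ± 0.0406 RPKM in control and 5.50 ± 0.322 against 0.523 ± 0.0831 RPKM in PELP1-KD samples. The ratio groups did not overlap, with a two-sided exact permutation p of 0.1, the smallest possible, and 0.15 after adjustment over 6 ratios.

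The other secreted factors had smaller differences. VEGFA, the main angiogenic growth factor, was downregulated from 107 ± 1.16 to 92.4 ± 1.24 CPM (SD, n = 3), a log2FC of -0.21 ± 0.040 (edgeR adjusted p-value 0.000272). ADM, the vasodilator peptide adrenomedullin, was downregulated from 129 ± 4.26 to 117 ± 4.15 CPM, a log2FC of -0.13 ± 0.041 (edgeR adjusted p-value 0.0109). That call was lost with library totals (adjusted p-value 0.097), without control replicate 2 (0.0617) and without PELP1-KD replicate 1 (0.0759). ANGPTL4, an inhibitor of lipoprotein lipase, was at 1.27 ± 0.264 CPM in control and 1.76 ± 0.221 CPM in PELP1-KD samples with overlapping groups (log2FC 0.45 ± 0.23, edgeR adjusted p-value 0.112).

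**Figure D2:**
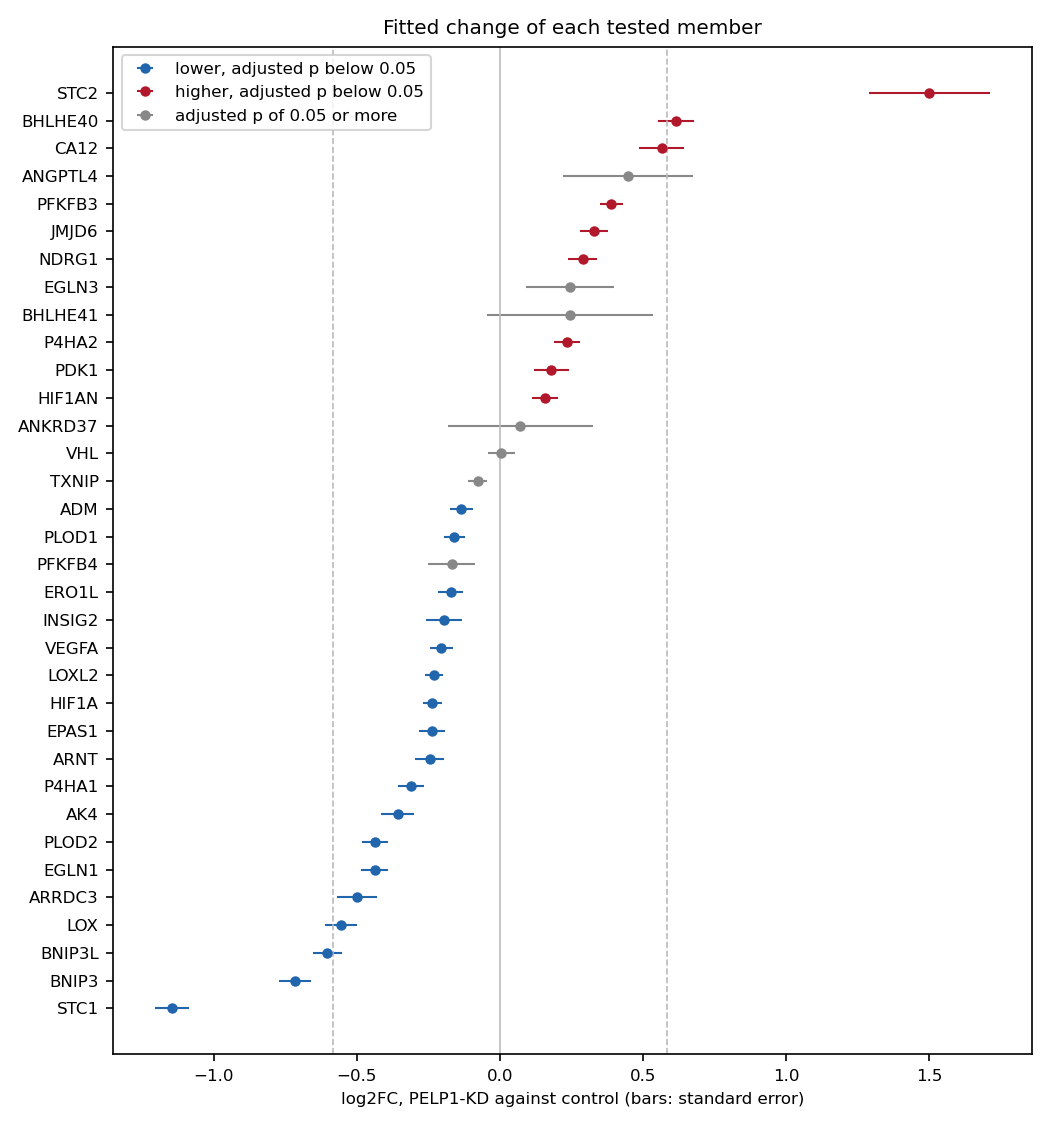
Fitted log2FC of the 34 tested members, PELP1-KD against control shRNA (3 samples each), sorted by value, with bars for the standard error. Blue points are the 18 lower and red points the 9 higher genes at an adjusted p-value below 0.05, grey points are the 7 others, and the dashed lines at 0.585 to either side of 0 mark 1.5-fold, which STC1, BNIP3, BNIP3L, STC2 and BHLHE40 pass.

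The carbonic anhydrases on the cell surface, which regulate pH outside the cell, differed in level. CA12 was upregulated from 14.6 ± 0.954 to 21.7 ± 1.31 CPM (SD, n = 3), a log2FC of 0.57 ± 0.078 (edgeR adjusted p-value 5.75e-06) with groups that did not overlap. CA9, a widely used marker of hypoxic tumor cells, was at the floor of detection, with counts of 2, 3 and 4 in control and 1, 2 and 4 in PELP1-KD samples, and was not tested. In GENCODE 38.5% of its exon bases overlap C9orf100 on the opposite strand, which had 228 to 467 counts per sample. The strand setting of the counting was not given in the sources used here, and without it reads from such overlaps cannot be assigned with certainty.

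Genes of glucose and nucleotide metabolism were mixed. PFKFB3, which makes fructose 2,6-bisphosphate, the activator of glycolysis, was upregulated from 100.2 ± 1.74 to 131 ± 3.86 CPM (log2FC 0.39 ± 0.040, edgeR adjusted p-value 1.07e-07). Its paralog PFKFB4 was at 17.8 ± 1.59 CPM in control and 15.9 ± 0.870 CPM in PELP1-KD samples, with overlapping groups (log2FC -0.17 ± 0.083, edgeR adjusted p-value 0.101, and 0.0412 without control replicate 3). The ratio of PFKFB3 to PFKFB4 RPKM went from 5.64 ± 0.541 to 8.24 ± 0.612, and its groups did not overlap (exact permutation p = 0.1, adjusted 0.15). PDK1, the kinase that inhibits pyruvate dehydrogenase, was upregulated from 28.3 ± 0.431 to 32.0 ± 1.73 CPM (log2FC 0.18 ± 0.062, edgeR adjusted p-value 0.0218). The PDK1 call was lost with DESeq2 (adjusted p-value 0.0542), without control replicate 2 (0.0814), without PELP1-KD replicate 1 (0.0574) and without PELP1-KD replicate 3 (0.117). AK4, a mitochondrial adenylate kinase, was downregulated from 40.2 ± 1.33 to 31.3 ± 0.967 CPM (log2FC -0.36 ± 0.057, edgeR adjusted p-value 3.26e-05).

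Both mitophagy receptors were downregulated, where 24.2% of all tested genes were lower, and 28.8% of those with a mean of at least 10 CPM. BNIP3 was at 78.4, 68.0 and 75.1 CPM in control and 44.4, 45.7 and 44.4 CPM in PELP1-KD samples. It fell by 39.1% with no overlap (log2FC -0.72 ± 0.055, edgeR adjusted p-value 1.36e-09). Its paralog BNIP3L (NIX) was at 113, 108 and 98.8 CPM in control and 72.2, 67.8 and 70.3 CPM in PELP1-KD samples. It fell by 34.2%, also with separate groups (log2FC -0.60 ± 0.050, edgeR adjusted p-value 3.94e-09). The ratio of BNIP3 to BNIP3L RPKM was 0.563 ± 0.0524 in control and 0.518 ± 0.0248 in PELP1-KD samples, with overlapping groups (exact permutation p = 0.3, adjusted 0.36). NDRG1, a stress-induced gene of this role group, went the other way, from 77.2 ± 6.27 to 94.5 ± 0.370 CPM (log2FC 0.29 ± 0.051, edgeR adjusted p-value 8.66e-05), and was upregulated.

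All 7 members that modify or cross-link collagen, or oxidise proteins in the endoplasmic reticulum, passed the test. Of them 6 were lower (85.7%) and 1 higher (14.3%), where 24.2% and 22.7% of all tested genes were. At a mean of at least 10 CPM those background shares were 28.8% and 22.9%. LOX, the lysyl oxidase that starts collagen cross-links, was downregulated from 54.2 ± 1.70 to 36.96 ± 2.28 CPM (SD, n = 3), a fall of 31.9% (log2FC -0.56 ± 0.057, edgeR adjusted p-value 9.25e-08). Its relative LOXL2 was downregulated from 383 ± 4.18 to 327 ± 10.1 CPM (log2FC -0.23 ± 0.031, edgeR adjusted p-value 4.34e-06). Per exon length LOXL2 was the more abundant, at 67.2 ± 0.732 RPKM against 9.78 ± 0.306 RPKM for LOX in control samples. ERO1L, the oxidase that feeds disulfide formation, was downregulated from 248 ± 16.1 to 220 ± 11.9 CPM (log2FC -0.17 ± 0.044, edgeR adjusted p-value 0.00325), and its nearest samples of the 2 groups, at 230 and 228 CPM, barely separated.

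The collagen hydroxylases came in pairs of paralogs. P4HA1, the main catalytic subunit of the prolyl hydroxylase of collagen, was downregulated from 106 ± 3.23 to 85.3 ± 4.10 CPM (log2FC -0.31 ± 0.045, edgeR adjusted p-value 1.12e-05). The alternative subunit P4HA2 was upregulated from 76.0 ± 3.24 to 89.3 ± 3.17 CPM (log2FC 0.23 ± 0.047, edgeR adjusted p-value 0.000341). The ratio of P4HA1 to P4HA2 RPKM was 3.77, 3.79 and 3.92 in control and 2.80, 2.69 and 2.41 in PELP1-KD samples. These ratios did not overlap (exact permutation p = 0.1, adjusted 0.15), and P4HA1 stayed the higher of the pair in all 6 samples.

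The lysyl hydroxylases PLOD1 and PLOD2 were both downregulated. PLOD2, which hydroxylates the collagen telopeptides, was at 150.2 ± 2.88 CPM in control and 111 ± 8.02 CPM in PELP1-KD samples (log2FC -0.44 ± 0.046, edgeR adjusted p-value 1.48e-07). PLOD1, which acts on the helical part, went from 142 ± 0.801 to 127 ± 1.29 CPM (log2FC -0.16 ± 0.036, edgeR adjusted p-value 0.00118). The ratio of PLOD1 to PLOD2 RPKM was 1.36 ± 0.0289 in control and 1.65 ± 0.129 in PELP1-KD samples, without overlap (exact permutation p = 0.1, adjusted 0.15).

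**Figure D3:**
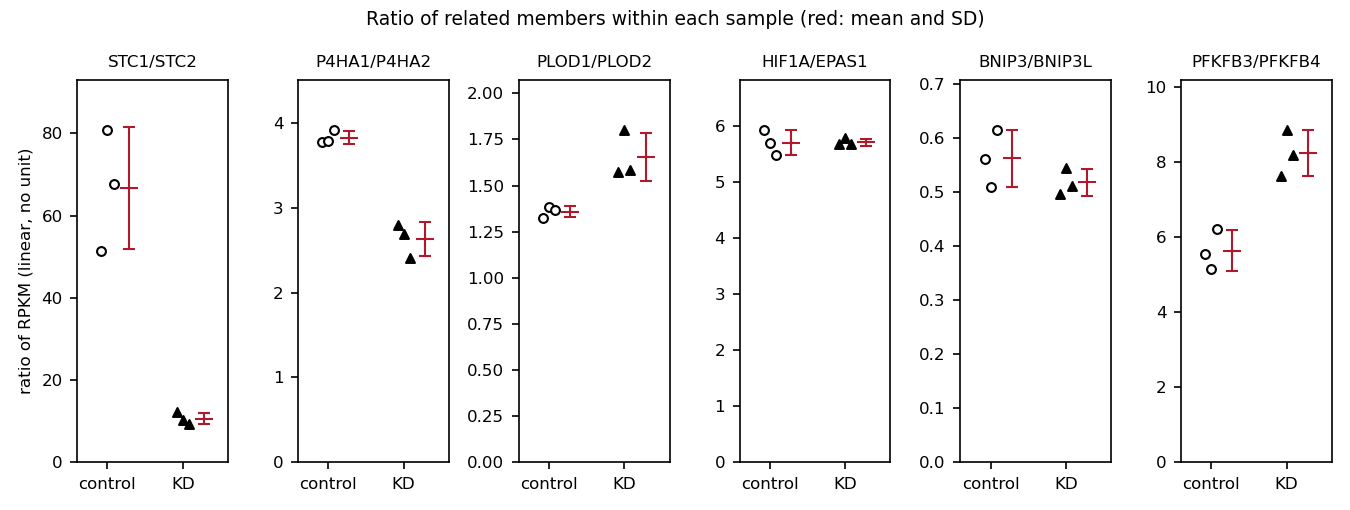
Ratio of the RPKM of related members within each sample, on linear axes that start at 0, for 3 control shRNA (circles) and 3 PELP1-KD samples (triangles), with the mean and SD in red. The groups do not overlap for STC1/STC2, P4HA1/P4HA2, PLOD1/PLOD2 and PFKFB3/PFKFB4 and overlap for HIF1A/EPAS1 and BNIP3/BNIP3L, and the exact permutation p cannot go below 0.1.

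Among the transcriptional and other targets, BHLHE40 (DEC1), a helix-loop-helix repressor, was at 29.2, 27.0 and 31.8 CPM in control and 45.1, 44.4 and 44.8 CPM in PELP1-KD samples. It rose 1.53-fold with groups well apart (log2FC 0.61 ± 0.062, edgeR adjusted p-value 8.05e-08). Its paralog BHLHE41 (DEC2) was at 1.41 ± 0.643 CPM in control and 1.65 ± 0.540 CPM in PELP1-KD samples, with overlapping groups and an edgeR adjusted p-value of 0.512. JMJD6, an oxygen-dependent hydroxylase of lysine, was upregulated from 49.3 ± 0.607 to 61.9 ± 2.18 CPM (log2FC 0.33 ± 0.050, edgeR adjusted p-value 1.64e-05). INSIG2, which retains the activator of sterol synthesis in the endoplasmic reticulum, was downregulated from 27.1 ± 0.827 to 23.7 ± 0.342 CPM (log2FC -0.20 ± 0.063, edgeR adjusted p-value 0.0153). The INSIG2 call was lost with library totals (adjusted p-value 0.0611), with DESeq2 (0.051), without control replicate 2 (0.0723) and without PELP1-KD replicate 3 (0.0567).

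ANKRD37, an ankyrin repeat protein, was at 1.64 ± 0.315 CPM in control and 1.74 ± 0.656 CPM in PELP1-KD samples, with an edgeR adjusted p-value of 0.835. Its exons overlap those of UFSP2 on the opposite strand over 35.2% of their bases, and UFSP2 had 615 to 873 counts per sample. SERPINE3, a serine protease inhibitor, had 0 counts in all 6 samples, which allows a level of up to 0.130 to 0.173 CPM by counting error alone. In GENCODE 30.3% of its exon bases overlap INTS6 on the opposite strand.

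The last 2 members, TXNIP and ARRDC3, are alpha-arrestins. TXNIP, which binds thioredoxin and lowers glucose uptake, was at 231 ± 5.52 CPM in control and 219 ± 1.54 CPM in PELP1-KD samples. Its groups did not overlap, yet the adjusted p-value was 0.0599 by edgeR (log2FC -0.08 ± 0.033). It was 0.0452 where genes needed at least 10 counts in every sample. ARRDC3, an adaptor for receptor trafficking, was downregulated from 30.6 ± 2.36 to 21.7 ± 1.10 CPM (log2FC -0.50 ± 0.070, edgeR adjusted p-value 7.03e-06). Per exon length the control level of TXNIP was 63.6 ± 1.52 RPKM and that of ARRDC3 was 6.21 ± 0.478 RPKM.

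Other genes of the pathway were counted in the same fit. A list of 18 further HIF pathway genes held the subunits HIF3A and ARNT2 and regulators such as ubiquitin ligases, chaperones and coactivators. HIF3A had 0 counts in all 6 samples and was not tested. Of the 17 tested, 5 (29.4%) were lower and 2 (11.8%) higher, with a median log2FC of -0.03. The lower share was near the 24.2% of all tested genes, and the higher share was below their 22.7%. The largest falls were those of the chaperone HSP90AA1 (log2FC -0.36 ± 0.026, edgeR adjusted p-value 6.04e-10), of CITED2, which competes with HIF for its coactivators (-0.33 ± 0.046, 5.35e-06), and of the deubiquitinase USP33 (-0.19 ± 0.047, 0.00254). ARNT2, a paralog of ARNT, rose (log2FC 0.27 ± 0.059, edgeR adjusted p-value 0.000939), as did SIAH2, a ubiquitin ligase for the EGLN enzymes (0.21 ± 0.066, 0.0132, and 0.0898 without PELP1-KD replicate 3).

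Of 54 further HIF target genes, 49 were tested, of which 20 (40.8%) were lower and 10 (20.4%) higher, with a median log2FC of -0.05. Of all tested genes 24.2% were lower and 22.7% higher, so the higher share was near the background. The median level of these target genes was 73.3 CPM, against 34.1 CPM for all tested genes. Of tested genes with a mean of at least 10 CPM, 28.8% were lower and 22.9% higher. DDIT4 (REDD1), an inhibitor of mTORC1, went from 78.2 ± 3.03 to 29.2 ± 3.00 CPM and fell by 62.6% (log2FC -1.42 ± 0.062, edgeR adjusted p-value 2.35e-13). NT5E (CD73), the enzyme that makes adenosine outside the cell, fell by 43.9% (log2FC -0.83 ± 0.030, edgeR adjusted p-value 7.92e-15), and hexokinase HK2 fell by 26.1% (log2FC -0.44 ± 0.045, edgeR adjusted p-value 9.95e-08). TMEM45A, a membrane protein, rose from 4.24 ± 0.397 to 13.2 ± 0.767 CPM (log2FC 1.64 ± 0.11, edgeR adjusted p-value 1.77e-10). The ligand EFNA1 rose by 0.55 ± 0.099 on the log2 scale and heme oxygenase HMOX1 by 0.50 ± 0.063 (edgeR adjusted p-values 0.000122 and 1.62e-06).

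A further list of 8 genes held other alpha-arrestins, their glucose sensors and the thioredoxin TXN. Of these 7 were tested, with 3 lower and 3 higher (42.9% each, where 24.2% and 22.7% of all tested genes were). The arrestin ARRDC2 did not pass the test (log2FC -0.07, edgeR adjusted p-value 0.538). The arrestins ARRDC4 (log2FC -0.68 ± 0.17, edgeR adjusted p-value 0.00251) and ARRDC1 (-0.47 ± 0.067, 9.54e-06) fell, as did TXN, the thioredoxin that TXNIP binds (-0.18 ± 0.031, 6.72e-05). The glucose-sensing factors MLXIPL (1.39 ± 0.34, 0.00234) and MLXIP (0.17 ± 0.048, 0.00592) and their partner MLX (0.22 ± 0.036, 4.12e-05) rose. MLXIPL was near the floor, at 0.429 ± 0.106 CPM in control and 1.12 ± 0.313 CPM in PELP1-KD samples.

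**Figure D4:**
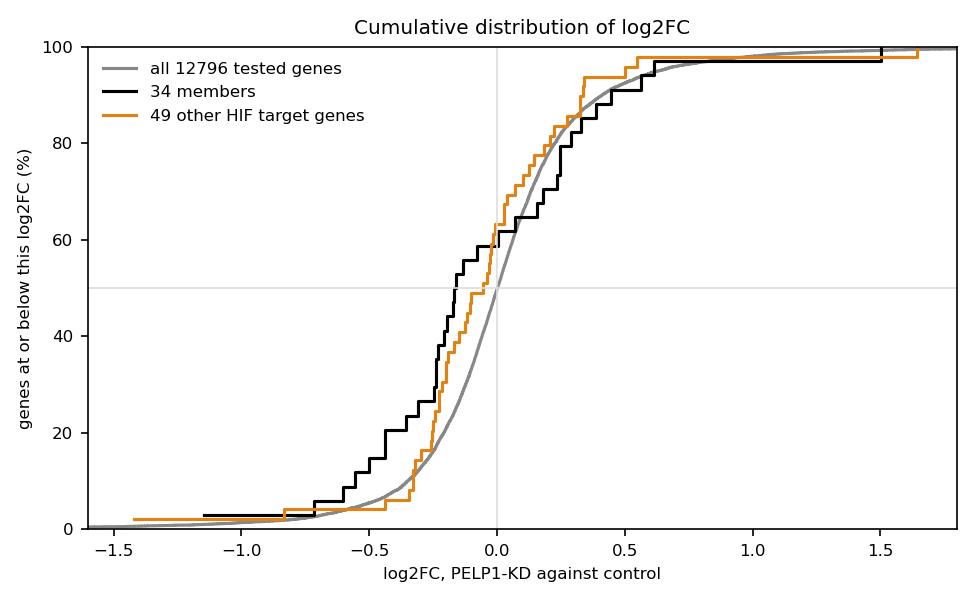
Cumulative share of genes, in percent, at or below each log2FC (PELP1-KD against control shRNA) for the 34 tested members in black, 49 other HIF target genes in orange and all 12796 tested genes in grey. The curve of the members crosses 50% at -0.16 and that of all tested genes at 0.0014, and both tails of the members hold few genes.

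The HIF core words upstream of the genes were counted for all members for which RefSeq gave a window of 250 bases before to 50 bases after the start. This held for 30 members, ERO1L by its synonym, with 43 windows, and not for VHL, VEGFA, STC1, BNIP3L, NDRG1, LOXL2 and JMJD6. The words ACGTG and GCGTG were searched on both strands of the 250 bases before the start, and CACGTG counts as ACGTG on both strands. ACGTG was in 20 of the 43 windows (46.5%), against 18.5% of all 35116 windows in the table, and at least 1 of the words was in 31 (72.1%), against 43.2%. Per gene, 17 of 30 members (56.7%) held ACGTG in some window, against 21.7% of 27305 genes, and 24 (80.0%) held either word, against 47.4%. The set was chosen for known HIF targets, so these shares describe its make-up.

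Members with and without the words were found in each direction of change upon PELP1-KD. ACGTG was found in 8 of the 14 lower members with a window, in 3 of 7 higher members, in 4 of 6 members not called and in 2 of the 3 not tested. Either word was in 12 of 14 lower, 5 of 7 higher, 5 of 6 not called and 2 of 3 not tested members. P4HA2, HIF1AN, ARNT, ARRDC3, EGLN3 and SERPINE3 had neither word in their windows, which says only that these letters are not in these stretches.

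**Figure D5:**
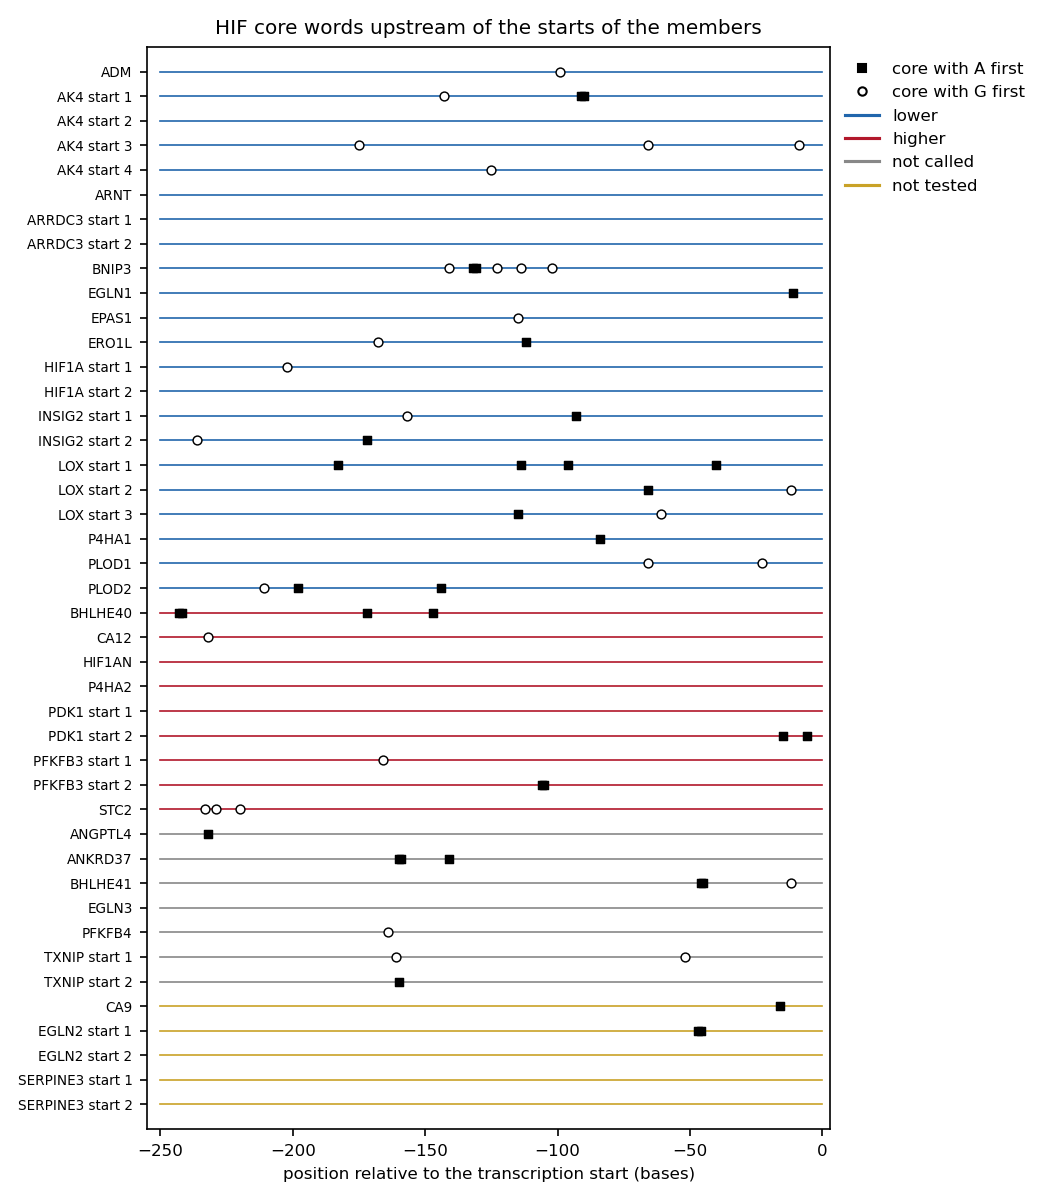
Positions of the HIF core words in the 250 bases upstream of each RefSeq start of 30 members (43 windows), with the start at 0 on the right. Filled squares are ACGTG and open circles GCGTG on either strand, and the line colour gives the call in PELP1-KD (blue lower, red higher, grey not called, yellow not tested), with words on lines of every colour.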

How the data were processed

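RNA was sequenced as single reads of 50 bases from stranded mRNA libraries. The authors deposited, for each of the 6 samples, raw counts of reads per gene symbol, without normalization. Per the submitters' processing notes, bcl2fastq, TopHat2, SAMtools, HTSeq and hg19 were used. Versions, annotation and strand setting are not given in the sources used here. Reads with several alignments were counted on no gene, so a gene with a near-identical copy is undercounted. Their row held 32.5% to 32.9% of all counts listed, and the rows on no gene together held 41.0% to 41.4%. These are not shares of all reads sequenced. Unaligned reads added nothing to the totals, and a read with several alignments may be listed more than once. These rows were left out of library sizes.

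Samples were grouped by their labels. Genes passing filterByExpr (minimum count 10) were scaled by TMM and tested by the quasi-likelihood test of edgeR 4.0.16 in R 4.3.3, with control and PELP1-KD as the only groups and Benjamini-Hochberg adjustment over all 12796 tested genes. Standard errors were obtained as |log2FC| over the square root of F. RPKM used union exon lengths of GENCODE release 29 (GRCh38), matched by symbol for 92.4% of genes and all 37 members, and promoter windows are from RefSeq on GRCh38.p14, not the authors' build. Ratios of paralogs were compared by two-sided exact permutation tests. The scripts were tested on simulated counts. Replicates of a group differed by more than counting noise (chi-square per degree of freedom 1.47 to 4.11). Pairs with control replicate 1 were at 3.87 and 4.11, and pairs with PELP1-KD replicate 2 at 2.75 and 2.71. The remaining pairs were at 1.47 in control and 1.51 in PELP1-KD samples.

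The members and lists were chosen with earlier results of these data known. All members are described, with values in every sample for HIF subunits, HIF regulators and members changed by over 1.5-fold, and from each further list the 3 largest falls and rises past the test are named. The floors (3 counts) cover counting error alone, and reads carried no molecular identifiers. The SDs and standard errors include the spread between samples. Alternatives were RLE size factors, library totals, limma voom 3.58.1, DESeq2 1.42.0, no filter, at least 10 counts in every sample, a replicate block and leaving out each sample. The count over members of at least 10 CPM and the ratios were added after seeing the data.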

Additional observations from a re-analysis of the deposited data

How the results depend on the processing

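Of the 34 tested members, 25 kept their direction and their side of the threshold in all 13 settings, and 9 did not in some setting (HIF1AN, VHL, ADM, PDK1, PFKFB4, ANKRD37, BHLHE41, INSIG2 and TXNIP). Leaving out each sample in turn gave 16 to 19 lower and 8 to 9 higher members, 2 to 4 members lower and 1 to 3 members higher by over 1.5-fold, and a PELP1 log2FC of -0.99 to -0.94. Among members that were not called, the sign turned when a sample was left out for VHL (log2FC -0.0351 to 0.037, below 0 without control replicate 2 at -0.0351 or PELP1-KD replicate 3 at -0.0172), ANKRD37 (-0.213 to 0.303, below 0 without control replicate 1 at -0.039 or PELP1-KD replicate 2 at -0.213) and BHLHE41 (-0.042 to 0.53, below 0 without control replicate 3). The cause was not tested. DESeq2 called 17 members lower and 8 higher, among 2699 lower and 2391 higher genes. Same-numbered samples showed no shared deviation from their group means, with correlations of 0.0388, 0.0653 and -0.0784. This does not settle whether they were prepared in pairs. In a fit with a replicate block, PELP1 had a log2FC of -0.97, 19 members were lower and 9 higher, with TXNIP added at an adjusted p-value of 0.0436 (edgeR), and 3335 genes were lower and 3140 higher. Levels below 0.130 to 0.173 CPM (3 counts) could not be resolved, which limits EGLN2, CA9 and SERPINE3. The exon overlaps of these genes also leave their levels uncertain.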
